A study of Mus musculus with 16 samples.

Results

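Cells with an invariant natural killer T (iNKT) type receptor whose beta chain belongs to the Vbeta8 family numbered 480 of the 5908 T cells read from tumours in mouse liver. They were chosen by their receptor genes alone, as cells whose leading alpha chain (TRA) joined TRAV11 to TRAJ18 and whose leading beta chain (TRB) used TRBV13-1, TRBV13-2, TRBV13-3 or the joint name TRBV12-2+TRBV13-2. The leading chain was the productive one with the most unique molecular identifiers (UMIs, tags that mark single captured RNA molecules). Both chains were read in 4787 of the cells, called paired cells, and 645 paired cells had the iNKT-type alpha chain. The comparison classes were the 876 other Vbeta8 cells, which use the same V beta segments with any other alpha chain, and the 124 iNKT-type cells with TRBV29 or TRBV1, the Vbeta7 and Vbeta2 segments.

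The mouse liver cancer line Hepa1-6, mixed with PBS and Matrigel, had been injected into the left lobe of the liver of C57BL/6 mice. Control mice (CON) had the genotype CD4creMatr3WT/WT and knockout mice (KO) the genotype CD4creMatr3fl/fl, so both carried Cre recombinase driven by the Cd4 promoter. Tumour-infiltrating lymphocytes were taken at day 5 and at day 14, with 2 T cell receptor (TCR) libraries in each of the 4 groups of genotype and day. The 8 RNA libraries of the series are not analysed here, so the level of Matr3, which encodes the nuclear RNA- and DNA-binding protein matrin 3, was not checked. The Cd4 promoter is active in thymocytes that carry both CD4 and CD8, the stage from which CD4, CD8 and iNKT cells all descend, so deletion is not limited to cells that keep CD4. The labels give no age or sex. They also leave unstated whether a group's libraries stem from different mice, so a p-value here speaks for the spread among libraries alone, and that spread may be technical.

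Type I iNKT cells recognise lipids held by the antigen-presenting molecule CD1d and release cytokines within hours of stimulation. In the mouse their alpha chain is nearly fixed, while the beta chain comes mostly from the Vbeta8, Vbeta7 and Vbeta2 families with a varied CDR3, the antigen-contacting loop made where V, D and J segments join. They are abundant in mouse liver, where many stay resident. Expansion of conventional T cells usually leaves many cells with 1 identical receptor, called a clonotype, so clone size and CDR3 variety describe how a population is built.

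The alpha CDR3 was 15 residues long in all 480. The rule fixed the V and J segments that encode most of this loop, so its near-constant ends follow from how the cells were chosen. Germline V and J ends were not compared here, so residues near the junction may also be encoded by these segments. The aspartate named below may thus follow from the TRAJ18 that the rule requires. The residues at positions 4 and 5, counted from the conserved cysteine as 1, were glycine then aspartate in 451 cells (94.0%), alanine then aspartate in 15, valine then aspartate in 12 and glycine then asparagine in 2. These 4 amino acid forms were encoded by 16 nucleotide forms. The 6 forms below, printed because they show a near-fixed protein written in several ways, differ only at the codons for positions 4 and 5, which are in capitals; they are read 5′ to 3′ from the deposited contigs.
Alpha form 1, 189 cells: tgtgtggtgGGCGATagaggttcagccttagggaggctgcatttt
Alpha form 2, 121 cells: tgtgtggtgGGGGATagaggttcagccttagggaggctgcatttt
Alpha form 3, 83 cells: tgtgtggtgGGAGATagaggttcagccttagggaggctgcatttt
Alpha form 4, 50 cells: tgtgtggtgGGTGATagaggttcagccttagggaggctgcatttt
Alpha form 5, 8 cells: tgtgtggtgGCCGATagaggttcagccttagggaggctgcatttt
Alpha form 6, 7 cells: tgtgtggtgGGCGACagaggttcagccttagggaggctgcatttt

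Forms 1 to 4 place each of the 4 glycine codons at position 4. Form 1 made up 39.5% ± 6.31 of the cells of a library (SD, n = 8 libraries), form 2 23.6% ± 5.80, form 3 17.7% ± 6.30 and form 4 9.20% ± 5.85. Forms 1 to 3 were present in all 8 libraries and form 4 in 7. Form 1 was paired with 182 different beta chains among its 189 cells and form 3 with 82 among 83, so cells that share an alpha sequence seldom shared a beta sequence. Glycine with aspartate was carried by 94.2% to 97.7% of the cells in the day 5 libraries and by 80.8%, 76.9%, 100% and 88.5% in day 14 CON replicates 1 and 2 and KO replicates 1 and 2. The difference between days was -9.08 percentage points (adjusted p = 0.429, exact permutation test), with 10 to 26 cells behind each day 14 value. Over all forms the codon at position 4 was GGC in 41.0% of the class, GGG in 25.4%, GGA in 17.5% and GGT in 10.4%. Among the 165 iNKT-type cells with any other V beta the order was the same, with 33.9%, 26.7%, 18.8% and 12.1%.

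The beta chain was almost as varied as the cells themselves. The 480 cells held 469 clonotypes, a clonotype being an alpha and beta pair alike in V, J and CDR3 nucleotides, and 465 different beta CDR3 amino acid sequences. Only 7 clonotypes held 2 or more cells, and these 18 cells were 3.75% of the total. Their beta CDR3 sequences are printed because they are all the repeated receptors of the class; capitals mark the bases between the first 4 codons and the last 4.
TRBV13-1 with TRBJ1-5, 4 cells of day 5 CON replicate 2: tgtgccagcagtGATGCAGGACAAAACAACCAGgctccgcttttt
TRBV12-2+TRBV13-2 with TRBJ1-1, 2 cells of day 5 CON replicate 2: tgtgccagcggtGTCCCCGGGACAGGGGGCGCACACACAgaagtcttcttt
TRBV13-1 with TRBJ1-2, 2 cells of day 5 CON replicate 2: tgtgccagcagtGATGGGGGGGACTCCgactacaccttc
TRBV12-2+TRBV13-2 with TRBJ2-5, 2 cells of day 5 KO replicate 1: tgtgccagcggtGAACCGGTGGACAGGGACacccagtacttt
TRBV13-1 with TRBJ2-5, 2 cells of day 5 KO replicate 1: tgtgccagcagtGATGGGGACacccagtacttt
TRBV12-2+TRBV13-2 with TRBJ1-1, 4 cells of day 14 KO replicate 2: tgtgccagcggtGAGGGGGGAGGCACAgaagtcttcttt
TRBV12-2+TRBV13-2 with TRBJ2-7, 2 cells of day 14 CON replicate 2: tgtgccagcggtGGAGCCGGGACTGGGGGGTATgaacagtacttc

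No clonotype was found in 2 libraries, and of the 465 beta CDR3 amino acid sequences 1 was. Sharing was also rare in the other Vbeta8 cells, where 5 of 507 such sequences were found in 2 or more libraries. It came from 1 cell of day 5 CON replicate 1, listed with TRBV13-2, and 1 cell of day 5 CON replicate 2, listed with the joint name, both with TRBJ1-2. The pair is printed below because its nucleotides differ at 3 bases, in capitals, while the 14 residues are the same, so the cells do not share a nucleotide rearrangement.
Day 5 CON replicate 1: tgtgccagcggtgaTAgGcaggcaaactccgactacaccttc
Day 5 CON replicate 2: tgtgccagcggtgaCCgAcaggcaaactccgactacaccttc
A further 6 beta CDR3 amino acid sequences of the class also occurred in 7 paired cells with another alpha chain, 6 of them Vbeta8 cells, and 3 of the 6 were shared down to the nucleotide. Of 5887 cell barcodes, 21 occurred in more than 1 library, 1 of them with a cell of the class, and none carried the same beta CDR3 in both places.

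The share of paired cells with an iNKT-type Vbeta8 receptor was lower at day 14 than at day 5 in all libraries. At day 5 it was 21.2% and 19.4% in CON replicates 1 and 2 and 25.0% and 23.1% in KO replicates 1 and 2, from 452, 608, 416 and 376 paired cells. At day 14 it was 2.19% and 1.87% in CON and 2.09% and 4.55% in KO, from 1189, 696, 478 and 572 paired cells. The days did not overlap: the highest day 14 library lay below the lowest confidence bound of the day 5 libraries, 16.5% (Wilson interval, 95%, counting error only). The mean fell by 19.5 percentage points, from 22.2% ± 2.41 to 2.67% ± 1.26 (SD, n = 4), with p = 0.0556 in a two-sided exact permutation test, the smallest p that its 36 relabelings allow. This fall was known from these data before the class was chosen, so the p is not independent evidence of it. In cells, 405 of the 480 came from day 5 and 75 from day 14. Fewer of these cells and more of the others cannot be told apart in a share, and the paired cells read numbered 376 to 608 per library at day 5 and 478 to 1189 at day 14.

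**Figure D1:**
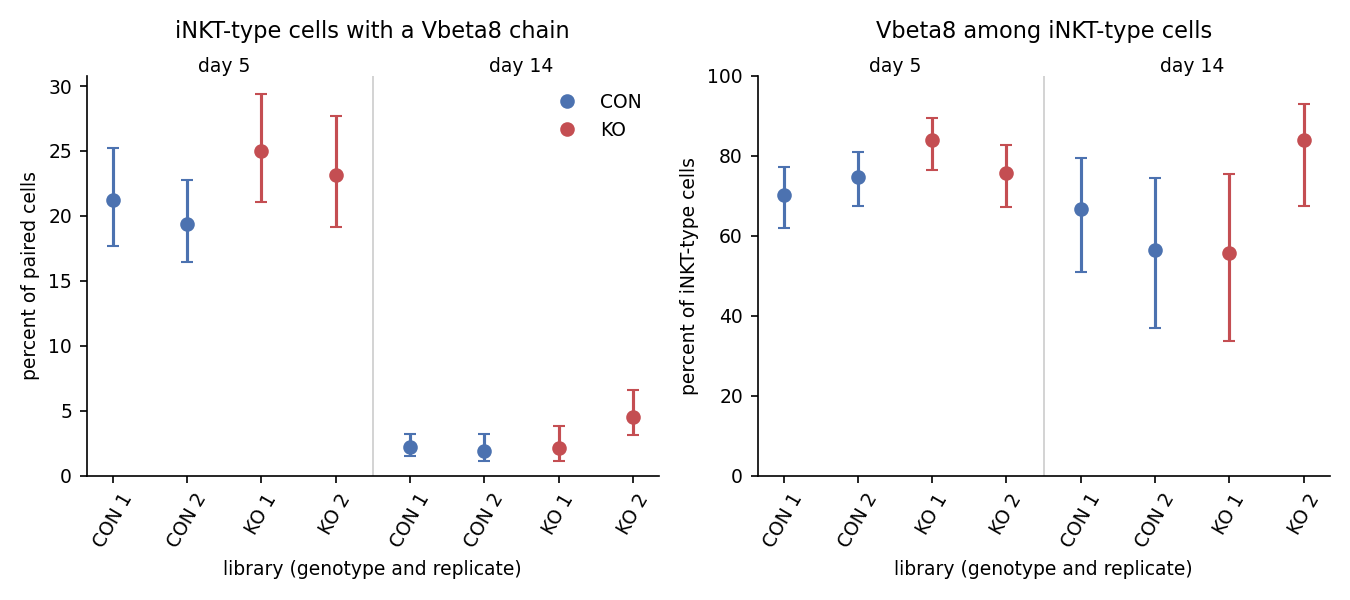
Left, iNKT-type Vbeta8 cells as a percent of paired cells in each of the 8 libraries. Right, Vbeta8 cells as a percent of iNKT-type cells; points are libraries, bars are 95% Wilson intervals, blue is CON and red is KO. The day 5 libraries on the left lie between 19.4% and 25.0% and the day 14 libraries between 1.87% and 4.55%.

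Within each day the KO mean was above the CON mean, 24.1% against 20.3% at day 5 and 3.32% against 2.03% at day 14. The 2 KO libraries exceeded the 2 CON libraries at day 5, while at day 14 KO replicate 1, at 2.09%, lay between the CON libraries. The difference over both days was 2.52 percentage points (p = 0.111, exact permutation test), and its change between days was -2.45 points (p = 0.444). Among iNKT-type cells, the part with a Vbeta8 chain was 70.1%, 74.7%, 83.9% and 75.7% in the day 5 libraries and 66.7%, 56.5%, 55.6% and 83.9% in those of day 14, in the order CON 1, CON 2, KO 1 and KO 2. The groups overlap in this measure, which differed by -10.4 points between days and by 7.75 points between genotypes (adjusted p = 0.429 and 0.50, exact permutation tests over 9 measures). For scale, Vbeta8 chains made up 12.6% to 30.8% of the paired cells without the iNKT-type alpha chain.

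All 4 V beta names of the class fell together with time. In an edgeR quasi-likelihood test on cell counts of 27 classes of V beta and alpha type, with paired cells as the offset and genotype as a covariate, 11 classes (40.7%) were called at an adjusted p under 0.05 and 8 (29.6%) were called as lower at day 14. The 4 V beta names of the class were all among those 8. The fall of iNKT-type receptors with time was known from these data before the comparison was chosen. The p-values for iNKT-type classes in this paragraph are therefore not independent evidence of that fall. For the joint name the day 14 share was 0.126 times that of day 5, -2.99 ± 0.33 on the log2 scale (SE), with an adjusted p of 0.000354. The log2 fold change was -3.32 ± 0.45 for TRBV13-1 (adjusted p = 0.000723), -3.01 ± 0.57 for TRBV13-3 (adjusted p = 0.00436) and -2.82 ± 0.81 for TRBV13-2 (adjusted p = 0.0255). The related iNKT-type classes also fell, TRBV29 by 2.61 ± 0.37 (adjusted p = 0.000723) and TRBV1 by 2.29 ± 0.47 on the log2 scale (adjusted p = 0.00516), all 6 with a median of -2.91 against -0.13 over the 27 classes. Without day 5 CON replicate 2, or without day 14 CON replicate 2, 7 classes were called in place of 11. The call for TRBV13-2 was lost without day 5 CON replicate 2, day 5 KO replicate 1 or day 14 CON replicate 2, with adjusted p up to 0.0671. For KO against CON, edgeR called none of the 27 classes (0%) and DESeq2 none, while 3 reached an unadjusted p under 0.05.

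The same V beta segments were used in different proportions by iNKT-type and other cells. The joint name was carried by 327 of the 480 cells, TRBV13-1 by 95, TRBV13-3 by 33 and TRBV13-2 alone by 25. Per library, TRBV13-2 and the joint name together took 67.8% to 80.8% of the class and 14.5% to 47.4% of the other Vbeta8 cells, with no overlap between the classes. The within-library difference was 39.8 ± 13.8 percentage points (SD, n = 8), higher in 8 of 8 libraries, with an adjusted p of 0.0234 in an exact sign-flip permutation test, a measure added after the values were seen. TRBV13-1 took 10.0% to 25.4% of the class and 18.8% to 77.3% of the other Vbeta8 cells, and TRBV13-3 took 7.17% ± 3.68 against 21.2% ± 13.1. At day 14 the other Vbeta8 cells held large clonotypes, the largest of 111 cells; with each clonotype counted once, the difference for TRBV13-2 and the joint name was 30.0 points, higher in the class in the same test.

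**Figure D2:**
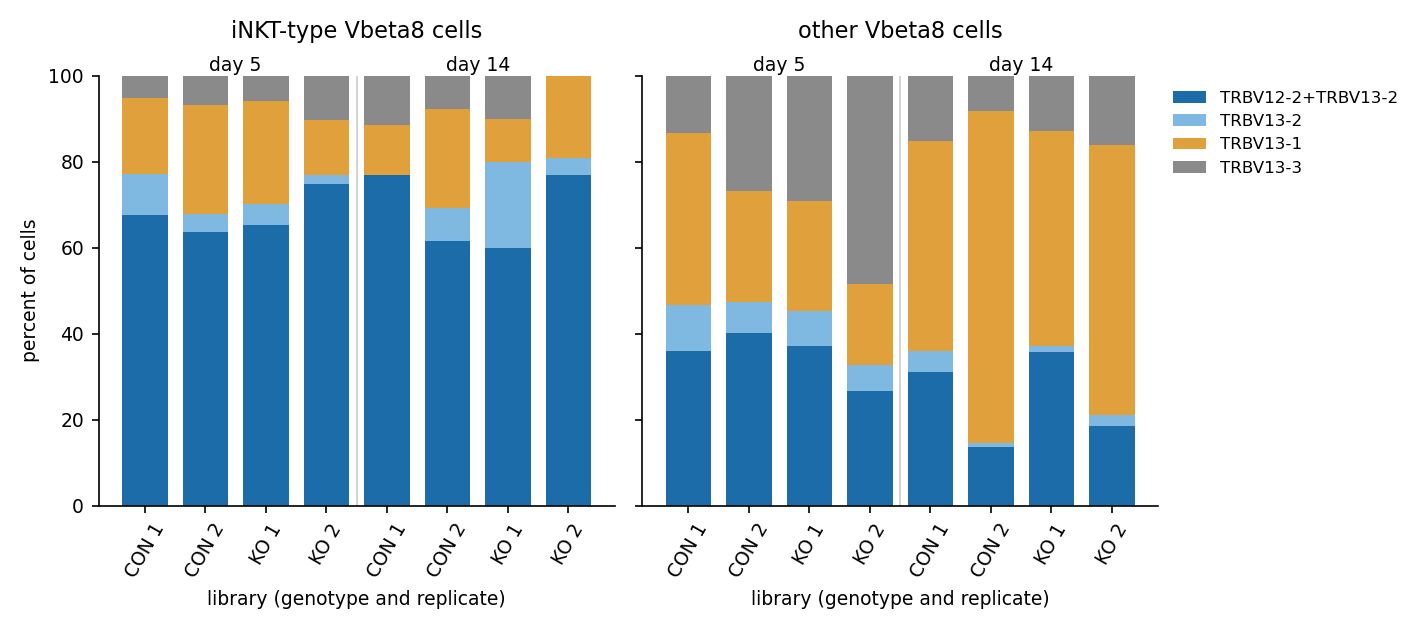
Stacked bars of the 4 V beta names as a percent of cells, by library, for iNKT-type Vbeta8 cells on the left and other Vbeta8 cells on the right. TRBV13-2 and the joint name, in blue shades, make up 67.8% to 80.8% on the left and 14.5% to 47.4% on the right.

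The joint name combines TRBV12-2 and TRBV13-2 in the deposited annotation, and the part of either segment in a contig was not checked. It was counted as Vbeta8 by the rule; its V sequence was not compared with a reference here, and TRBV12-2 by itself is a Vbeta5 segment, so 327 of the 480 cells rest on this annotation. RefSeq places these segments next to each other on chromosome 6 of GRCm38, the build named in the submitters' processing notes, TRBV12-2 at 41118864 to 41119364 and TRBV13-2 at 41121396 to 41121832. TRBV13-1 lies at 41116036 to 41116468 and TRBV13-3 at 41130147 to 41130585 of the same chromosome. Contigs with the joint name were a median of 572 bases long, against 551 for TRBV13-2 alone. Of the 346 clonotypes with TRBV13-2 or the joint name, 333 (96.2%) had a beta CDR3 that begins CASG, and none of the 90 TRBV13-1 and 33 TRBV13-3 clonotypes did. The alpha segments lie on chromosome 14, TRAV11 at 53519303 to 53519859 and TRAJ18 at 54200777 to 54200842.

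Clones were small in the class at both days, while those of other Vbeta8 cells were larger at day 14. The percent of cells in clonotypes of 2 or more cells was 0, 6.78, 3.85 and 0 in day 5 CON replicates 1 and 2 and KO replicates 1 and 2, and 0, 15.4, 0 and 15.4 in the same order at day 14. Each of the day 14 values of 15.4% rests on 1 clonotype, of 2 cells among 13 in CON replicate 2 and of 4 cells among 26 in KO replicate 2. In the other Vbeta8 cells it was 5.33%, 13.4%, 12.9% and 4.69% at day 5 and 49.7%, 82.1%, 35.7% and 66.0% at day 14. The class was lower in 8 of 8 libraries, by 28.6 ± 25.1 percentage points (SD, adjusted p = 0.0234, exact sign-flip permutation test). A share of this kind can rise with the number of cells read, which was not evened out between the classes. At day 14 a library held 10 to 26 cells of the class and 70 to 207 other Vbeta8 cells. At day 5 it held 87 to 118 and 62 to 97. How much of the difference comes from these numbers was not tested. Over the day 5 libraries alone the difference was -6.43 points, and the exact permutation test over 4 libraries cannot go below its p of 0.125. Within TRBV13-2 and the joint name alone it was -12.9 points (adjusted p = 0.188). The change of this difference from day 5 to day 14 was -44.3 points (p = 0.0556, exact permutation test, the smallest possible, adjusted p = 0.0741).

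Diversity within the class was near its ceiling. In random draws of 10 cells, the size of the smallest library, the expected number of distinct clonotypes was 9.98 ± 0.0237 at day 5 and 9.69 ± 0.359 at day 14 (SD, n = 4). The difference of -0.292 between days (adjusted p = 0.50) and of -0.0124 between genotypes (adjusted p = 1) did not pass the exact permutation test. At this depth a repeated clonotype at day 14 would be seen only where it takes a large part of 10 to 26 cells.

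Beta CDR3s were slightly longer in the class as a whole, though not for every V beta name. Over clonotypes of all libraries the length ran from 8 to 19 residues with a median of 14 in the class, and 42.0% of its clonotypes had 15 residues or more, against 33.3% of the other Vbeta8 clonotypes. The library means were 14.2, 14.4, 13.7 and 14.2 residues at day 5 and 14.6, 14.2, 14.7 and 14.7 at day 14, again in the order CON 1, CON 2, KO 1 and KO 2. In the other Vbeta8 cells they lay between 13.7 and 14.2. The class was longer in 7 of 8 libraries, the exception being day 5 KO replicate 1, by 0.424 ± 0.401 residues (SD, adjusted p = 0.0352, exact sign-flip permutation test). The call was kept without 2 of the 8 libraries and lost without any of the other 6 (adjusted p = 0.0703), and without the joint name the difference was 0.0920 residues. By V beta name, over pooled clonotypes and with no test, mean lengths in the class and in other Vbeta8 cells were as follows. They were 14.28 and 13.94 for the joint name and 14.52 and 13.97 for TRBV13-2. For TRBV13-1 they were 13.96 and 13.86, and for TRBV13-3 13.55 and 13.81, the reverse order.

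**Figure D3:**
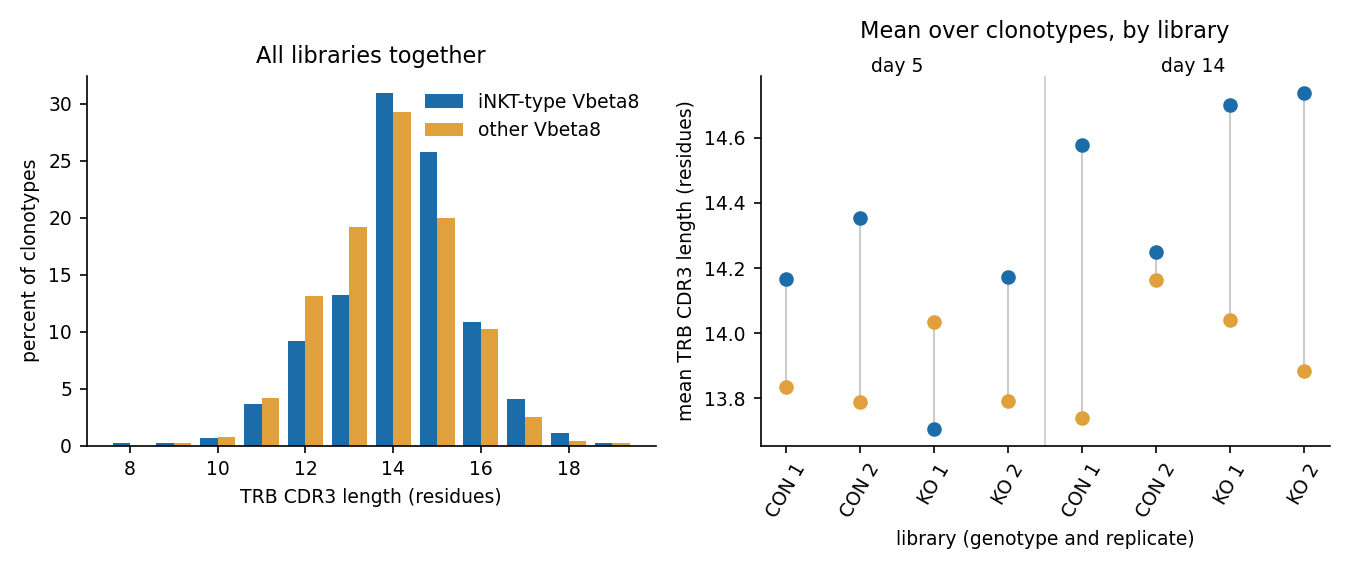
Left, distribution of beta CDR3 length in residues, as a percent of clonotypes, for iNKT-type Vbeta8 cells (blue) and other Vbeta8 cells (orange). Right, the mean length over clonotypes in each library, with the pair joined by a line and an axis that does not start at 0. The blue point is higher in 7 of the 8 libraries, and the bars of 15 residues or more add up to 42.0% in blue and 33.3% in orange.

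Lengths of the class were 0.467 residues greater at day 14 than at day 5 (adjusted p = 0.429, exact permutation test) and differed by -0.00754 residues between KO and CON over both days (adjusted p = 1). The latter averages differences of opposite sign, -0.321 residues at day 5, where the genotypes overlapped, and 0.306 at day 14, where both KO libraries lay above both CON libraries; the change between days was not tested. Residue 5, where the TRBV13 segments can themselves encode aspartate, was aspartate in 49.1% of the clonotypes with TRBV13-2 or the joint name, in 57.8% of those with TRBV13-1 and in 54.5% of those with TRBV13-3, and glutamate in 14.2%, 6.67% and 6.06%. An acidic residue 5 was found in 59.2% ± 9.97 of the clonotypes of a library and in 64.9% ± 6.22 of those of other Vbeta8 cells (SD, n = 8, adjusted p = 0.246, exact sign-flip permutation test, added after the values were seen). The mean hydropathy of the middle of the loop, on the Kyte-Doolittle scale, was -1.31 ± 0.212 in the class and -1.28 ± 0.0997 in the other Vbeta8 cells (adjusted p = 0.672). In the class it was -1.43 and -1.25 in CON and -1.47 and -1.35 in KO at day 5, and -1.44 and -1.53 in CON and -0.991 and -0.995 in KO at day 14. The genotypes overlapped at day 5, with KO minus CON at -0.0709, and did not overlap at day 14, with 0.492. Over both days the difference was 0.211 (adjusted p = 0.50, exact permutation test over 9 measures), the day 14 libraries hold 10 to 26 cells each, and the change between days was not tested. A D segment was named in the deposited annotation for few clonotypes, TRBD1 for 19.6% and TRBD2 for 11.5% of the class.

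J beta use of the class was called different from that of other Vbeta8 cells at 3 segments, TRBJ1-5 being used more and TRBJ1-6 and TRBJ2-2 less. Only the TRBJ1-5 call was kept with each of the 8 libraries left out in turn. TRBJ1-6 could not be tested without day 14 CON replicate 1, and the TRBJ2-2 call was lost without some single libraries. All 12 TRBJ names seen in Vbeta8 cells were used. TRBJ2-7 was the commonest, with 102 cells or 20.6% ± 5.14 per library (SD, n = 8), followed by TRBJ2-1 with 70 cells (16.9% ± 6.68), TRBJ1-2 with 61 (12.3% ± 6.31), TRBJ1-1 with 56 (13.0% ± 5.12), TRBJ2-5 with 47 (6.95% ± 5.03) and TRBJ2-4 with 39 (9.05% ± 5.36). TRBJ1-5 had 35 cells (5.23% ± 4.12), TRBJ2-3 25 (6.70% ± 5.88), TRBJ1-3 19 (3.83% ± 3.20), TRBJ1-4 14 (3.59% ± 2.99), TRBJ2-2 11 (1.69% ± 1.54) and TRBJ1-6 1 cell. Neighbours in this order overlap in their range over libraries, TRBJ2-2 and TRBJ1-6 included.

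Against the other Vbeta8 cells of the same library, edgeR called 3 of 12 TRBJ segments (25%), with library as a block, and DESeq2 called 2. TRBJ1-5, at 41535084 to 41535133 of chromosome 6, was used by 5.21%, 11.9%, 8.65% and 4.60% of the class at day 5 and by 7.69%, 0%, 0% and 3.85% at day 14, in the order CON 1, CON 2, KO 1 and KO 2. In the other Vbeta8 cells it was found in 1 of 298 cells at day 5 and in 9 of 578 at day 14. All 4 day 5 libraries of the class lay above all 8 values of the other cells. At day 14 the class had 3 of 75 cells and was higher than the other Vbeta8 cells in CON replicate 1 and KO replicate 2, where these had 4.14% and 0%, and lower in CON replicate 2 and KO replicate 1, where these had 0.966% and 1.43%. TRBJ1-5 was not tested at day 14 alone, so the value below, over both days, rests mainly on day 5. The log2 fold change, 2.46 ± 0.50 (SE), had an adjusted p of 4.52e-05 in edgeR, a 5.51-fold higher share, and the clonotype of 4 TRBJ1-5 cells printed above was not needed for it: with each clonotype counted once it was 2.12 (adjusted p = 0.00473). It was also called by edgeR within TRBV13-2 and the joint name alone, at 2.16 (adjusted p = 0.018), and in the day 5 libraries alone, at 4.07 (adjusted p = 7.85e-06). Both restrictions were chosen after the data were seen, so these 2 calls are not independent support for the difference.

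TRBJ1-6, at 41535554 to 41535606, was carried by 1 cell of the class, in day 5 KO replicate 1, and by 31 of the 876 other Vbeta8 cells. Its log2 fold change was -2.96 ± 0.71 (SE, adjusted p = 0.00295, edgeR). Of those 31 cells, 23 came from day 14 CON replicate 1, where TRBJ1-6 took 15.9% of the other Vbeta8 cells but 3.57% of their clonotypes. Without that library TRBJ1-6 fell below the 20 cells needed for a test and 1 segment was called in place of 3, and DESeq2 gave TRBJ1-6 an adjusted p of 0.0854. TRBJ2-2, at 41542957 to 41543007, was used by 1.92% to 3.39% of the class at day 5 and by 0%, 0%, 0% and 3.85% at day 14. In the other Vbeta8 cells it was 1.93% to 21.4%. The highest of these values, in day 14 KO replicate 1, was 15 of 70 cells but 3.92% of clonotypes. Over clonotypes the library means were 1.78% in the class and 5.89% in the other Vbeta8 cells. The log2 fold change over cells was -1.34 ± 0.51 (SE, adjusted p = 0.0431, edgeR). That call was kept without 3 of the 8 libraries and lost without each of the other 5 (adjusted p up to 0.141). Within TRBV13-2 and the joint name alone, and in the day 5 libraries alone, both chosen after the data were seen, TRBJ1-5 was the 1 segment called. TRBJ2-1 had a log2 fold change of 0.79 ± 0.41 (adjusted p = 0.175) and did not pass.

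**Figure D4:**
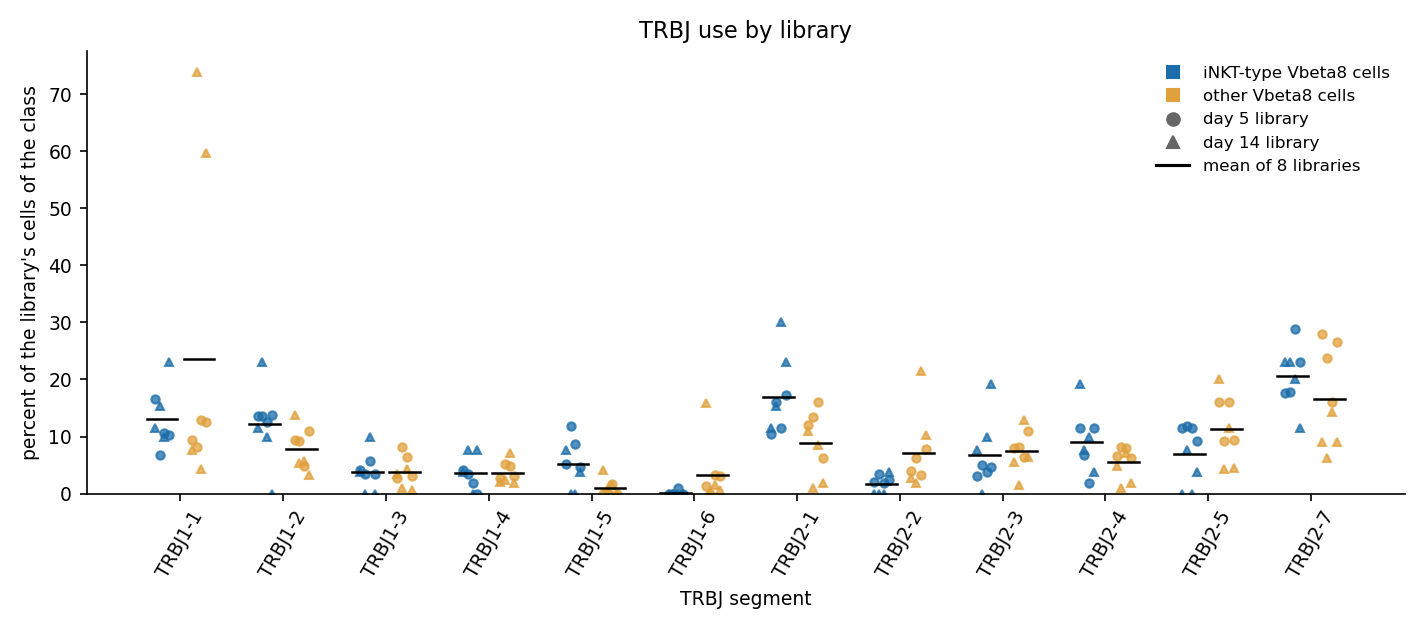
Percent of cells that use each TRBJ segment, by library, in iNKT-type Vbeta8 cells (blue) and other Vbeta8 cells (orange); circles are day 5 and triangles day 14 libraries, and black lines are means of 8 libraries. For TRBJ1-5 the 4 blue circles lie between 4.60% and 11.9%, above every orange point, and TRBJ1-6 is at 0 in 7 of the 8 blue libraries.

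TRBJ use of the class showed no called change with time or genotype. Between days edgeR called none of 11 segments (0%) and DESeq2 none, while 1 reached an unadjusted p under 0.05. That segment was TRBJ2-5, used by 45 of 405 cells at day 5 and by 2 of 75 at day 14. Its log2 fold change was -1.97 ± 0.94 (SE, adjusted p = 0.443, edgeR). TRBJ2-3 was used by 17 of 405 and by 8 of 75 cells, with 1.29 ± 0.72 (adjusted p = 0.443). Between KO and CON edgeR called none of 11 (0%) and DESeq2 none, and 0 reached an unadjusted p under 0.05. The 2 smallest p belonged to TRBJ1-4, with 4 of 227 KO and 10 of 253 CON cells and a log2 fold change of -1.08 ± 0.73, and to TRBJ2-7, with 55 and 47 cells and 0.38 ± 0.25 (adjusted p = 0.799 for both). The TRBJ1 cluster together was used by 32.2% to 43.8% of the class at day 5 and by 30.0% to 46.2% at day 14.

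Few cells of the class carried a further productive alpha chain. T cells can rearrange both TRA alleles, and a minority express both. Such a chain was read in 4 of the 480 cells (0.833%) and in 217 of the 876 other Vbeta8 cells (24.8%). By library it was 0%, 0.847%, 0.962% and 0% of the class at day 5 and 3.85%, 7.69%, 0% and 0% at day 14, against 6.45% to 14.1% of the other cells at day 5 and 6.21%, 50.7%, 14.3% and 38.5% at day 14. The class was lower in 8 of 8 libraries, by 17.5 ± 14.96 percentage points (SD, adjusted p = 0.0234, exact sign-flip permutation test). With each clonotype counted once the difference was -9.76 points. The rule takes the alpha chain with more UMIs, which leaves out cells whose iNKT-type chain was the weaker one; counting these added 8 cells, and the difference was then -14.3 points (adjusted p = 0.0234 for both). The call was lost without the joint name (-17.6 points, adjusted p = 0.188), within TRBV13-2 and the joint name alone (-11.7 points, adjusted p = 0.0938) and over the day 5 libraries alone (-10.5 points, adjusted p = 0.375), where 4 libraries cannot give an exact p under 0.125. An unproductive TRA contig was read in 29.4% ± 13.3 of the class and 22.2% ± 9.41 of the other Vbeta8 cells, higher in 5 of 8 libraries (adjusted p = 0.391, a measure added after the values were seen).

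Alpha chains of the class had fewer UMIs than those of the other Vbeta8 cells. The mean log2 TRA UMIs per cell were 1.83, 1.89, 1.62 and 1.89 at day 5 and 1.58, 2.02, 1.08 and 1.49 at day 14, in the order CON 1, CON 2, KO 1 and KO 2. For the other Vbeta8 cells they were 1.73 to 2.17 at day 5 and 2.36, 2.42, 2.11 and 2.32 at day 14. The difference was -0.44 ± 0.39 (SD, adjusted p = 0.0312, exact sign-flip permutation test), lower in 7 of 8 libraries, with day 5 KO replicate 2 the other way. It was -0.13 over the day 5 libraries, and -0.19 (adjusted p = 0.219) where only clonotypes of 1 cell entered. The call was lost without each of 5 libraries (adjusted p = 0.0625). For beta chains the difference was -0.27 ± 0.41 (adjusted p = 0.131), and its sign turned to 0.15 among clonotypes of 1 cell. Median UMIs per cell of the class were 2 to 5 for the alpha and 7 to 12 for the beta chain, and 8.47% to 30.0% of its alpha chains rested on 1 UMI.

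**Figure D5:**
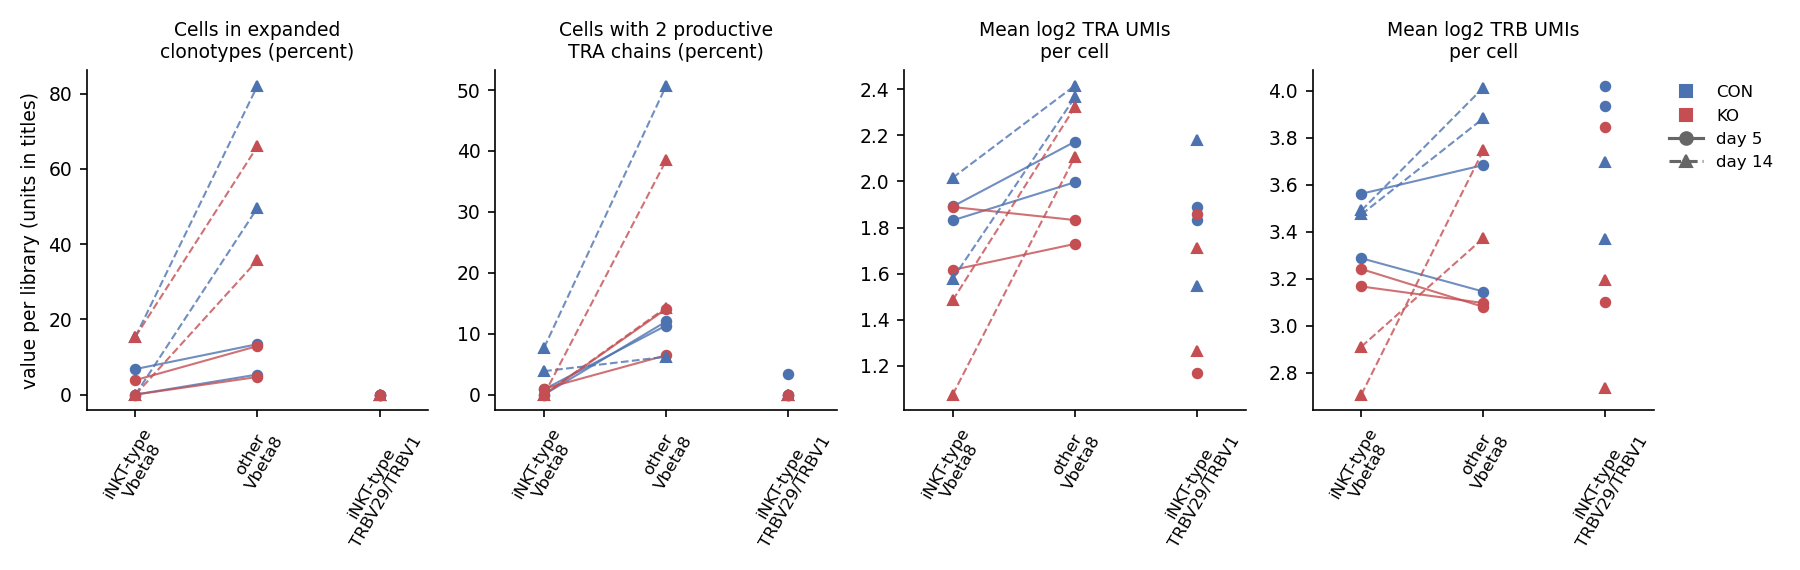
Per-library values of 4 measures, named in the panel titles with their units, for iNKT-type Vbeta8 cells, other Vbeta8 cells and iNKT-type cells with TRBV29 or TRBV1; blue is CON, red is KO, circles and solid lines are day 5, triangles and dashed lines day 14, and the UMI axes do not start at 0. Lines join the first 2 classes of 1 library and rise in all 8 libraries in the first and second panels.

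Between days the UMI values of the class overlapped, while its beta chains had fewer UMIs in both KO libraries than in both CON libraries at each day. TRA UMIs differed by -0.27 on the log2 scale between days (adjusted p = 0.429) and by -0.31 between KO and CON (adjusted p = 0.50, exact permutation tests). Mean log2 TRB UMIs were 3.29 and 3.56 in CON and 3.24 and 3.17 in KO at day 5, and 3.47 and 3.49 in CON and 2.91 and 2.71 in KO at day 14. The KO means were lower by 0.22 at day 5 and by 0.67 at day 14. The same order was found in both comparison classes, again with no overlap between genotypes within a day: 3.09 in KO against 3.41 in CON at day 5 and 3.56 against 3.95 at day 14 in the other Vbeta8 cells, and 3.47 against 3.98 and 2.96 against 3.53 in the iNKT-type cells with TRBV29 or TRBV1. In the class, the difference of -0.45 over both days had p = 0.0556, the smallest that the design allows, and an adjusted p of 0.50 over 9 measures (exact permutation test). Library depth ran the same way. UMIs of productive chains over all cells were 8255 and 7683 in KO against 9592 and 15674 in CON at day 5. At day 14 they were 11441 and 13402 in KO against 31936 and 18654 in CON. Whether depth accounts for the order of the TRB UMIs was not tested.

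Against the iNKT-type cells with TRBV29 or TRBV1, which share the alpha chain, none of 6 measures of the class passed the test. The differences were -0.0610 residues in beta CDR3 length (adjusted p = 0.769), -0.131 in hydropathy (adjusted p = 0.691), 5.17 percentage points in expanded clonotypes (adjusted p = 0.375) and 1.25 points in cells with a further productive alpha chain (adjusted p = 0.625, exact sign-flip permutation tests). No clonotype of 2 or more cells was found among those 124 cells, of which a library held 5 to 32. In expanded clonotypes the class was higher in 4 libraries, lower in 0 and tied in the rest. In further productive alpha chains it was higher in 4, lower in 1 and tied in the rest. Tied libraries add nothing to a sign flip, so neither of these tests could give a p under 0.05. The log2 UMIs differed by -0.0086 for alpha (adjusted p = 0.984) and by -0.26 for beta chains (adjusted p = 0.375). An acidic residue 5 of the beta CDR3 was found in 6.65% ± 11.4 of their clonotypes, against 59.2% ± 9.97 of the class, given with no test because the V segments of the classes differ.

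Depth ran from 7683 to 31936 UMIs of productive chains and from 474 to 1404 cells per library. Productive gamma, delta and immunoglobulin chains were absent from all 8 libraries. These are TCR libraries and the chains they amplify were not checked, so this does not show that gamma delta T or B cells were absent. Mucosal-associated invariant T type cells, which join TRAV1 to TRAJ33, numbered 4. Among the 480 cells 13 were possible doublets, with at least 2 productive TRB or at least 3 productive TRA chains, and they were kept. TRAV11 with another J segment was read in 11 cells and TRAJ18 with another V segment in 61.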

How the data were processed

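The deposited tables hold 1 assembled contig per line. Per the file headers, they give counts of UMIs and reads per contig, whole numbers with no normalization, beside other deposited values, of which the contig's length in bases was used. The submitters' processing notes name GRCm38 (mm10), Cell Ranger 3.1.0, Seurat 4.0.0, CASAVA 1.8 and R 4.1.2, without roles.

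Contigs called cell, high-confidence and productive were kept, names of the duplicated TRAV11 copies were merged, and the TRA and TRB chain with most UMIs (ties by reads) stood for the cell. A clonotype's CDR3 length and hydropathy (without 4 residues at either end) counted once per library. Cells per segment entered the quasi-likelihood F test of edgeR 4.0.16 (R 4.3.3; Benjamini-Hochberg adjustment, threshold 0.05, offset log of the class's cells). V beta classes needed 20 cells over all libraries, TRBJ segments 20 in the comparison of classes and 10 within the class. DESeq2 1.42.0 was an alternative. Two-sided exact permutation tests compared per-library values. Sign flips within library had a smallest p of 0.00781 with 8 libraries and no ties. Relabeling days or genotypes gave 36 relabelings and a smallest p of 0.0556, so that 0.05 cannot be reached. The scripts were tested on simulated data. Replicate numbers were not treated as pairs, because their correlations ran from -0.437 to 0.232 with 2 of 6 over 0.1.

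The members, lists and comparisons were chosen with earlier results of these data known, and the fall of iNKT-type receptors with time was among them. All V beta and TRBJ names are given. Clonotypes named are the 3 with most cells at each day, extended to all 7 of 2 or more cells after their values were seen, since the third at day 14 was 1 of many single cells. TRB CDR3s named are those in most libraries and TRA CDR3s the 6 commonest. Sequences come from the deposited contigs and positions from RefSeq (GRCm38.p6), which held all 20 segments looked up. Alternatives were chain and doublet filters, V name and alpha chain rules, clonotype counting, scaling, DESeq2, filters, means or medians, single libraries left out and a replicate block. Restriction to TRBV13-2 and the joint name, to day 5 or to the commonest alpha CDR3 was chosen after seeing the data, as were the tests of how class differences changed between days.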

Additional observations from a re-analysis of the deposited data

Results flagged for a closer look

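In day 14 KO replicate 2, iNKT-type Vbeta8 cells were 4.55% of paired cells, far from the other 3 day 14 libraries, the nearest of which had 2.19%. The gap was 0.881 of the whole range of the 4 libraries and past the 95% critical value of Dixon's test. Of 20 such checks, over 10 measures and both days, this was the 1 that passed, and chance passes about 1 in 20.

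Barcodes that were not called cells also held the iNKT-type alpha rearrangement. A productive TRAV11 with TRAJ18 contig was listed for 84 of their 718 productive TRA contigs, 66 of 287 (23.0%) at day 5 and 18 of 431 (4.18%) at day 14. In cells these were 24.6% to 28.8% of the TRA contigs of a library at day 5 and 2.68% to 4.98% at day 14. Of the 84, 13 were marked high-confidence, and their median was 1 UMI in 6 libraries.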

How the results depend on the processing

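Of 830 values under alternatives, over 57 results, 750 were labelled as unchanged. For a difference this means the same direction and the same side of the threshold. For a count of segments called it means an equal or similar count. Tests that relabel days or genotypes cannot give a p under 0.0556, so their side of the threshold was fixed in advance. The total is therefore no measure of how stable the results are. Depth limits what day 14 can show: with 10 to 26 cells of the class per library, 1 cell there is 3.85% to 10.0% of a library. The cause of the changes below was not tested. Day 5 alone, or leaving out a library, leaves fewer libraries and raises the smallest possible p. Leaving out the joint name does so too in the sign-flip tests. In day 14 KO replicate 1, 6 of 10 cells of the class carry it, and the rest are under the 5 cells needed per class. For log2 TRA UMIs the sign-flip p without the joint name was 0.0156 (adjusted p = 0.0938), the smallest then possible.

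The length difference from other Vbeta8 cells, called at 0.424 residues, no longer passed with chains of 2 or more UMIs (0.434), without the joint name (0.0920), with any productive TRA chain (0.463), with clonotypes of 1 cell (0.412), within TRBV13-2 and the joint name (0.511) or at day 5 (0.238), and ran from 0.363 to 0.532 with 1 library left out. Without the joint name, within TRBV13-2 and the joint name, and at day 5, the difference in expanded clonotypes (-34.8, -12.9 and -6.43 points), in cells with 2 productive TRA chains (-17.6, -11.7 and -10.5 points) and in log2 TRA UMIs (-0.41, -0.30 and -0.13) lost their calls. Log2 TRA UMIs also lost it with clonotypes of 1 cell (-0.19) and by median UMIs (-1 UMI), and ran from -0.52 to -0.36 with 1 library left out. The share with TRBV13-2 or the joint name was 30.0 points higher at day 5, with no call. TRBJ segments called against other Vbeta8 cells numbered 1 within TRBV13-2 and the joint name and 1 at day 5, in place of 3, and 1 to 4 with 1 library left out; V beta classes called between days numbered 7 to 12, in place of 11.

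Among differences that did not pass the test, the sign turned as follows. Hydropathy against other Vbeta8 cells was 0.120 without the joint name, 0.0463 as a mean over cells and -0.0726 to 0.00659 with 1 library left out. Log2 TRB UMIs were 0.15 with clonotypes of 1 cell, 0.16 within TRBV13-2 and the joint name and 0.063 at day 5. Log2 TRA UMIs against the TRBV29 or TRBV1 cells were 0.18 with chains of 2 or more UMIs, 0.0079 with any TRA chain and -0.074 to 0.023 with 1 library left out, and the medians differed by 0.188 UMIs. KO minus CON in length was 0.245 without the joint name, 0.0331 with any TRA chain and -0.124 to 0.109 with 1 library left out. In expanded clonotypes it was 1.77 points with chains of 2 or more UMIs and -4.58 to 3.11 with 1 library left out. In distinct clonotypes it was -0.177 to 0.153. Day 14 minus day 5 in expanded clonotypes was -0.499 points with chains of 2 or more UMIs and -4.88 without the joint name. The change with time of the difference from other Vbeta8 cells in 2 productive TRA chains was 2.61 points with each clonotype counted once and 5.32 with clonotypes of 1 cell, where that in log2 TRB UMIs was 0.19. The change between days of the KO difference in share was 0.0443 points without the joint name.

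With the replicate block 12 V beta classes were called between days and no other count of calls changed. TRBJ1-6 held under 20 cells with each clonotype counted once, with clonotypes of 1 cell, within TRBV13-2 and the joint name and at day 5, and was not tested there; rarefaction had no value where a library held under 10 cells.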
